A study of Mus musculus with 9 samples.

Results

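Vascular endothelial cells line the blood vessels that feed the retina and, in samples that keep it, the choroid. In a single-cell RNA-seq experiment on mouse eyes, 337 of 31089 cells were taken as vascular endothelial cells. They were selected on measured values: at least 3 of Ptprb, Adgrl4, Flt1, Cldn5 and Pecam1 had 1 or more UMI (unique molecular identifier, 1 per captured RNA molecule), the 5 genes summed to at least 5 per 10000 UMIs of the cell, and this sum was above that of the pericyte genes Rgs5, Pdgfrb, Kcnj8, Abcc9 and Notch3. Levels of these 10 genes are therefore given as a description and were not tested.

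The study asked what follows in the eye when miR-204 and miR-211 are deleted in the retinal pigment epithelium (RPE), the pigmented layer behind the photoreceptors. All 9 mice were RPE65-ERT2-Cre.miR-211fl.miR-204fl, in which the RPE65 promoter drives a tamoxifen-dependent Cre and both microRNA genes are flanked by loxP sites. The 5 dKO (double knockout) mice, S05 to S09, received tamoxifen at 75 mg/kg for 5 days from postnatal day 28, and the 4 control mice, S01 to S04, received corn oil. Per the paper, tissue was taken 6 months after induction, with both retinas of a mouse pooled. The RPE65 promoter does not target endothelial cells, and in this design an effect of tamoxifen and an effect of the deletion cannot be told apart.

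In the retina, endothelial cells form the inner blood-retinal barrier. They are sealed by tight junctions, carry few vesicles, import glucose and amino acids through dedicated carriers and are held in this state by norrin, a ligand from Müller glia that signals through the receptor Fzd4 and beta-catenin. Pericytes wrap the same capillaries. Vessels of the choroid are instead fenestrated and carry the diaphragm protein Plvap. Along a vessel, arterial, capillary and venous endothelial cells express different genes.

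The deleted microRNAs have the same seed, the stretch that pairs with target mRNAs. The mature sequences, taken from RefSeq on GRCm38.p6, are shown because they define the dKO group, with the seed (bases 2 to 8) in capitals. They differ at 1 of 22 bases, at position 17 from the 5′ end. The first lies at chr19:22750610-22750631 and the second at chr7:64205831-64205852, both on the plus strand.
mmu-miR-204-5p: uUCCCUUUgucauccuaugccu
mmu-miR-211-5p: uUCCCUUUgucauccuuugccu

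Several libraries stood apart before any comparison. Rods made up 89.3%, 75.7% and 82.4% of the cells of S04, S05 and S07 and between 32.8% and 46.3% in the other 6 mice. The same 3 mice were the shallowest, with median UMIs per cell of 4775 to 5413 against 8118 to 10340, and they were the only ones with high summed levels of the Y-linked genes Uty, Ddx3y, Kdm5d and Eif2s3y, at 404 to 424 CPM (counts per 1000000 UMIs of the summed cells) against 4.25 to 4.96 CPM. The labels give S06 and S07 the same animal number, yet their Y-linked levels were 4.43 and 404 CPM. In S07, 8 of its 57 endothelial cells had Xist UMIs and no Y-linked UMI. Results below are given with and without these mice where they change. Each full cell identifier occurred once, and 76 of the 337 cells shared their well barcode with a cell of another sublibrary.

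The selected cells were mostly, but not entirely, what the label says. Their sum of the 5 selecting genes ran from 5.13 to 234 per 10000 UMIs with a median of 110. Just outside the limits lay 103 cells that had 3 or more of the genes but a sum of up to 4.91 per 10000, and 355 cells that had 2 of the genes and a median sum of 11.7. A check used 10 further endothelial genes that the selection did not use (Cdh5, Tie1, Tek, Kdr, Erg, Emcn, Egfl7, Esam, Cd34 and Eng, which include the junction protein VE-cadherin, the Tie receptors and the main VEGF receptor). At least 4 of the 10 had a UMI in 264 of the 337 cells (78.3%), and 130 cells had all 10. The same held for 9.45% of 254 pericytes and 0.00613% of 16325 rods.

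**Figure D1:**
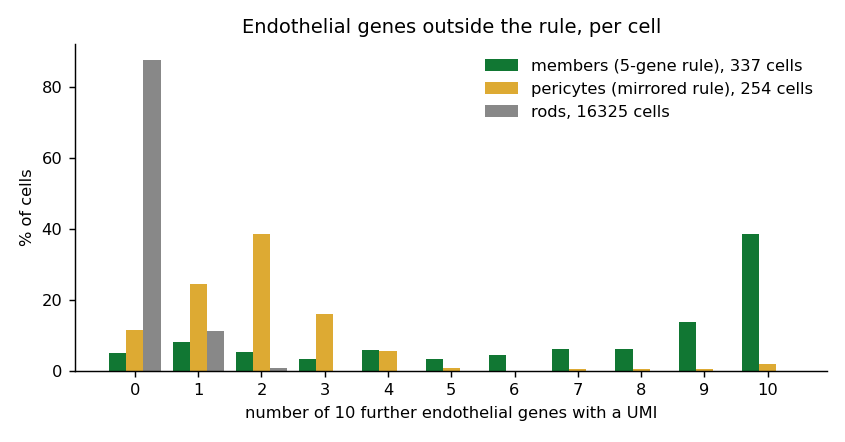
Percentage of cells (y axis) by how many of 10 endothelial genes outside the selection had a UMI (x axis, 0 to 10), for the 337 selected cells, 254 pericytes and 16325 rods. The selected cells pile up at 9 and 10 genes, with a smaller group at 0 to 3 where the pericytes and rods lie.

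The other 73 cells carried fewer endothelial and more retinal transcripts. Their median sum of the selecting genes was 12.5 per 10000 against 125 in the 264 cells. The 12 rod genes summed to 5298 CPM in them against 1305 CPM, and the 8 Müller glia genes to 5062 CPM against 1027 CPM, with Glul, the glutamine synthetase of Müller glia, at 2243 CPM against 583 CPM. They were also shallower, with a median of 4997 UMIs against 15112. Each count of called genes below was also taken on the 264 cells alone.

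Pericyte transcripts were present too. Rgs5 had a UMI in 42.1% of the endothelial cells and Pdgfrb in 31.8%, and 74 of the 337 cells held 3 or more of the 5 pericyte genes, 70 of them among the 264 with strong endothelial identity. Further marker lists were set against all cells that were neither endothelial cells nor pericytes. The 5 RPE genes summed to 34.9 against 568 CPM, 6 fibroblast genes to 35.7 against 43.3 CPM and 3 astrocyte genes to 8.18 against 25.7 CPM. Higher than in those cells were 8 microglia and leukocyte genes (44.8 against 26.5 CPM), 3 smooth muscle genes (169 against 6.24 CPM) and 5 erythrocyte genes (27.7 against 6.12 CPM). Without the cells that held 3 or more genes of the other kind, an alternative chosen after seeing the data, the count of called genes changed little in either comparison (0 against control, 2119 against pericytes).

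Depth was uneven between the cells. The median was 12182 UMIs with a range over mice of 7774 in S07 to 27294 in S05, and 53 of the 337 cells lay among the deepest 5% of the series (over 36631 UMIs). Those 53 cells held 53.2% of all endothelial UMIs, so summed levels lean on them.

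The share of endothelial cells among all cells overlapped between dKO and control. Control mice S01 to S04 had 48, 36, 33 and 10 such cells, which made 1.16%, 0.931%, 1.02% and 0.369% of their cells. The dKO animals S05 to S09 had 4, 60, 57, 39 and 50, or 0.247%, 1.45%, 1.21%, 1.22% and 1.43%. The lowest values of both groups belonged to rod-rich mice, S04 and S05. The means were 1.11% ± 0.497 (SD, n = 5) in dKO and 0.871% ± 0.348 (SD, n = 4) in control mice, a difference of 0.242 percentage points that did not pass a two-sided exact permutation test (p = 0.381). S05 decided this outcome: without it all 4 dKO mice lay above all 4 control mice, the difference was 0.458 percentage points and the exact permutation p was 0.0286, the smallest that 4 against 4 mice can give. S05 also had the fewest cells of any mouse (1620). Without S04, the lowest control mouse, and with S05 kept, the difference was 0.0743 percentage points (exact permutation p = 0.75).

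The denominator mattered for single mice. Among cells that were not rods, endothelial cells made up 6.89% in S07 and between 1.02% and 3.46% in the other 8 mice, and the group difference of 0.684 percentage points had an exact permutation p of 0.778. Fewer endothelial cells in an eye and fewer of them released by papain cannot be told apart from these shares.

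**Figure D2:**
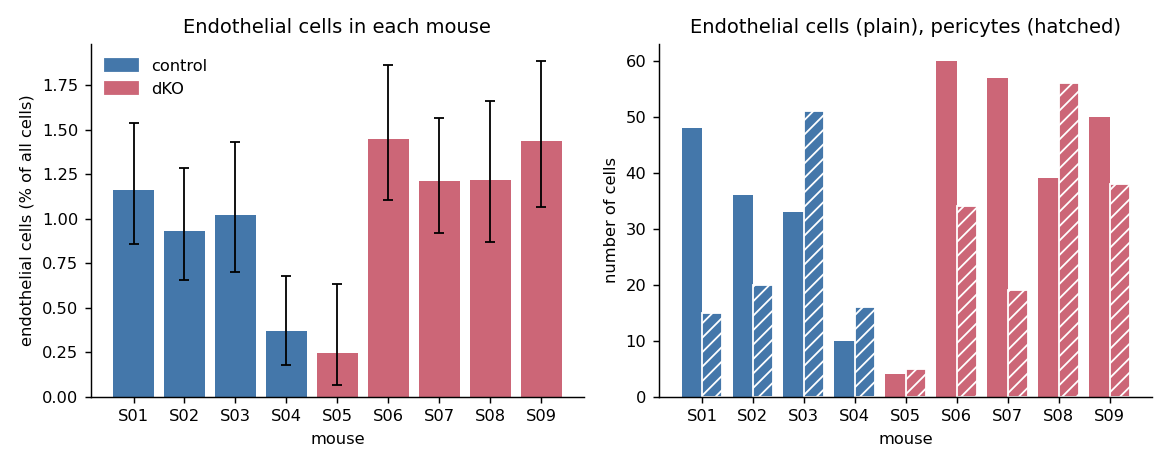
Left, endothelial cells as a percentage of all cells (y axis) in each mouse (x axis), with exact binomial 95% intervals as error bars, which cover counting error only. Right, numbers of endothelial cells (plain bars) and pericytes (hatched bars) per mouse. S04 and S05 have the smallest shares, and the balance of both cell kinds differs widely between mice of 1 group.

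The number of endothelial cells per pericyte gave a second measure that rods do not enter. Pericytes were taken by the mirrored rule and numbered 15, 20, 51 and 16 in the control mice and 5, 34, 19, 56 and 38 in the dKO mice. The log2 ratio was 1.61, 0.82, −0.61 and −0.63 in control and −0.26, 0.80, 1.54, −0.51 and 0.39 in dKO mice, with 1 added to both numbers, so both groups spanned nearly the same range. The mean was 0.39 ± 0.82 (SD, n = 5) in dKO and 0.30 ± 1.11 (SD, n = 4) in control mice (difference 0.09, two-sided exact permutation p = 0.857). Its sign turned to −0.21, −0.22, −0.01 or −0.19 without S03, S04, S06 or S07.

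Endothelial cells differed from the pericytes of the same mice in many genes, among them listed transport, junction, Wnt and transcription factor genes. Both cell kinds were selected by markers and the lists were chosen with earlier results known. Whether these lists differ more than other sets of genes was not tested. UMIs were summed per mouse and cell kind in the 8 mice with at least 10 cells of both kinds, which leaves out S05, and tested with edgeR with the mouse as a block. Of 6827 genes tested outside the 10 selecting genes, 979 (14.3%) were higher and 1162 (17%) lower in endothelial cells at an adjusted p under 0.05, or 31.4% in all (2211 genes on the 264 cells). Scaling by library size alone gave 1205 higher and 989 lower. That scaling moved the median log2 fold change of all genes from 0.01 to 0.12. The pericyte group also held smooth muscle RNA, with the 3 smooth muscle genes at 2637 CPM, and fibroblast RNA, with the 6 fibroblast genes at 955 CPM, so low endothelial values against it are not against pericytes alone.

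The barrier carriers stood out as a group. Of the 15 listed transporter genes tested, 14 were higher in endothelial cells and none lower, with a median log2 fold change of 3.33 beside 0.01 for all genes tested. Slco1a4, an organic anion carrier of barrier endothelium on chromosome 6 (GRCm39, 141751165 to 141802036), had a lowest, median and highest level of 1587, 2185 and 2649 CPM in endothelial cells and of 0, 46.6 and 423 CPM in pericytes. The endothelial level was above the pericyte level in each of the 8 mice and the ranges did not overlap (log2 fold change 4.88 ± 0.72 SE, adjusted p = 0.000199). Slc2a1, the glucose carrier GLUT1 on chromosome 4 (118965908 to 118996365), ran from 1122 over 1868 to 2794 CPM against 6.13, 83.9 and 436 CPM (log2 fold change 4.11 ± 0.40, adjusted p = 1.01e-05). Slc6a6, the taurine carrier, was also higher in every mouse, at 1430 ± 269 against 332 ± 89.7 CPM (mean and SD, n = 8 mice). The 1 transporter gene that did not pass was Slc3a2, the heavy chain that pairs with the amino acid carrier Slc7a5 (log2 fold change 0.65, adjusted p = 0.0756), while Slc7a5 itself did (3.73 ± 0.41).

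Among the cells themselves these carriers were widespread. After each cell was thinned to 3000 UMIs, which left 276 endothelial cells and 249 pericytes and dropped 61 and 5, Slco1a4 was seen in 78.3% of endothelial cells, 5.22% of pericytes and 0.75% of rods, and Slc2a1 in 82.6%, 12.0% and 13.8%. Without thinning the endothelial shares were 80.1% and 87.5%. The share in rods gives the level that free RNA and true expression in rods produce together.

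Of 12 junction genes tested, 8 were higher and 1 lower (median log2 fold change 1.23). Tjp1, the tight junction scaffold ZO-1, was at 1469, 1672 and 2339 CPM (lowest, median, highest) in endothelial cells and 297, 348 and 540 CPM in pericytes, with no overlap (log2 fold change 2.16 ± 0.16, adjusted p = 3.56e-06). The gene that went the other way was Magi1, a scaffold of cell contacts (log2 fold change −0.63 ± 0.21, adjusted p = 0.0352), which was higher in endothelial cells in 2 of 8 mice changed sign when cells needed 4 of the 5 markers (0.83) and lost its call without S03, S04, S06, S08 or S09 (−0.44 to −0.68). Cgnl1, which codes for a cingulin-like junction protein, did not pass (0.82 ± 0.33, adjusted p = 0.0839).

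**Figure D3:**
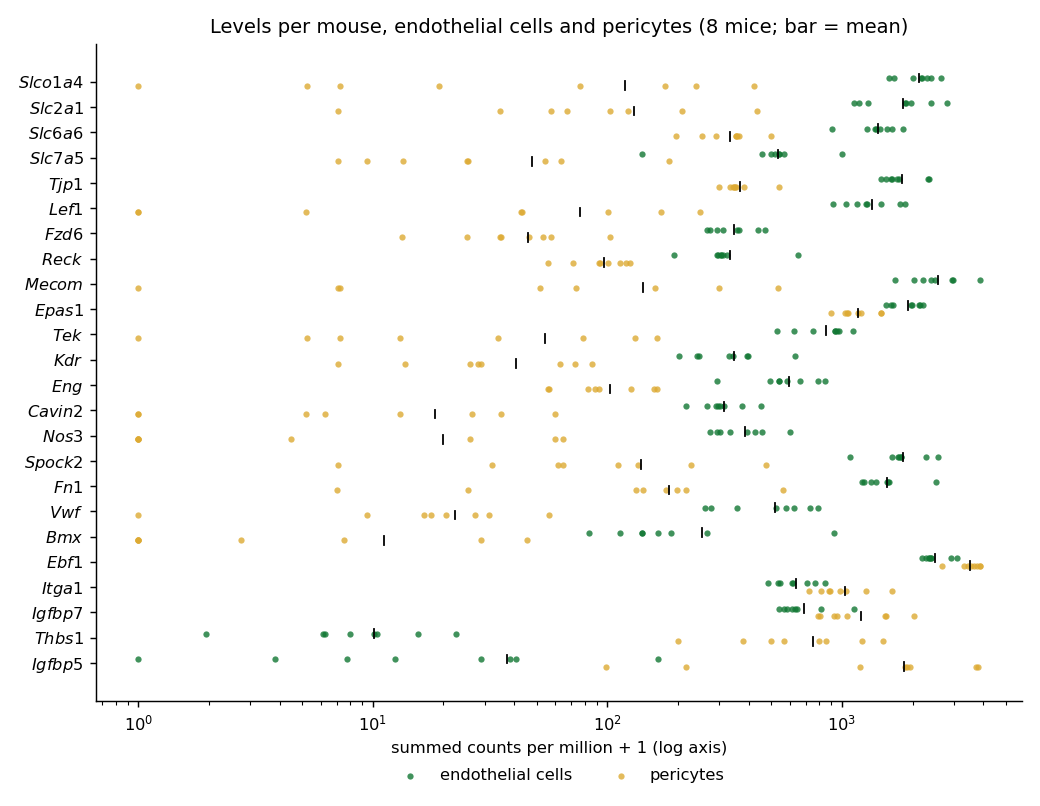
Level (x axis) of 24 genes (y axis) in endothelial cells and pericytes of the 8 mice with at least 10 of both, as summed CPM plus 1 on a log axis. Each point is a mouse and each bar a mean. From Slco1a4 down to Bmx the endothelial points lie to the right of the pericyte points of the same gene on average, and from Ebf1 down to Igfbp5 to the left.

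Of the 15 norrin and Wnt genes tested, 9 were higher and none lower (median log2 fold change 0.98). The nuclear effector Lef1, on chromosome 3 (130903919 to 131018005), was at 918, 1272 and 1865 CPM in endothelial cells and 0, 42.1 and 247 CPM in pericytes (log2 fold change 4.66 ± 0.59, adjusted p = 6.15e-05). The feedback target Axin2 (2.17 ± 0.26) and the transcription factor Sox17 (4.54 ± 0.48), named after their values were seen, were also higher, as were the co-receptor Lrp5 (0.98 ± 0.18), the receptor Fzd6 (2.79 ± 0.30) and the Wnt7 co-receptor Reck (1.63 ± 0.24). Fzd4, the norrin receptor, did not pass: its median level was 87.2 CPM in endothelial cells and 63.0 CPM in pericytes (0.25 ± 0.29, adjusted p = 0.589). Neither did the co-receptor Lrp6 (−0.48) nor the nuclear factor Tcf7l1 (−0.47). Tspan12 (−0.05), Nkd1 (−0.64) and Apcdd1 (0.69) were the rest of the 6 list members that were not called.

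Receptors for vascular growth factors were largely endothelial. Of 12 genes in the VEGF, angiopoietin and tip cell list, 7 were higher and 2 lower. Tek, the angiopoietin receptor, was at 850 ± 198 against 53.1 ± 63.0 CPM (log2 fold change 4.32 ± 0.58), and Kdr, the main VEGF receptor, at 347 ± 135 against 39.6 ± 29.0 CPM (3.11 ± 0.37). The 2 lower genes were ligands, Angpt2 (−1.70 ± 0.44) and Pgf (−3.32 ± 0.64). Nrp1, a co-receptor for VEGF, did not pass (−0.65 ± 0.31, adjusted p = 0.133). Of 15 BMP and TGF-beta genes 7 were higher and none lower, among them the receptors Eng (2.43 ± 0.24), Bmpr2 (1.23 ± 0.15) and Tgfbr2 (0.70 ± 0.14).

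Of 18 transcription factors on the endothelial list, 14 were higher and 2 lower (median log2 fold change 2.06). Mecom, a zinc finger factor on chromosome 3 (30005439 to 30602157), was at 1675, 2438 and 3891 CPM in endothelial cells and 0, 61.6 and 533 CPM in pericytes (4.95 ± 0.74, adjusted p = 0.000209). The ETS factor Erg (2.38 ± 0.33) and the hypoxia-linked factor Epas1 (0.58 ± 0.14) were higher as well, though Epas1 lost its call without the cells that held 3 or more genes of the other kind (0.45, adjusted p = 0.0984). The 2 lower genes were Ebf1 (−0.62 ± 0.13), which was below the pericyte level in all 8 mice, and Foxc1 (−0.90 ± 0.20).

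Genes that mark segments of the vessel were split. All 7 capillary genes tested were higher in endothelial cells, with Spock2, a proteoglycan of the extracellular matrix, at 1086, 1765 and 2569 CPM against 6.13, 86.7 and 475 CPM, and the chemokine Cxcl12 at 790 ± 288 against 117 ± 71.1 CPM. Of 14 arterial genes 7 were higher and 2 lower. Bmx, a tyrosine kinase of arterial endothelium, was higher in all 8 mice (4.25 ± 0.63), but its level ran from 82.2 to 928 CPM between mice. The 2 lower arterial genes were the connexin gene Gja4 (−2.50 ± 0.31) and the Notch target Hey2 (−2.05 ± 0.31), both below the pericyte level in all 8 mice. Of 7 venous genes 3 were higher, among them Vwf, the von Willebrand factor (4.37 ± 0.42), and Ephb4 (1.88 ± 0.26), and 1 was lower, the vein-specifying factor Nr2f2 (−2.37 ± 0.24).

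Basement membrane genes mostly leaned to the pericytes, with 3 of 17 higher and 7 lower, beside 14.3% higher and 17% lower of all genes tested. Fibronectin (Fn1) was the clearest exception, at 1212, 1477 and 2524 CPM against 6.05, 159 and 559 CPM (3.33 ± 0.43), together with the integrin Itga6 (4.23 ± 0.49) and perlecan (Hspg2, 1.11 ± 0.27). The lower genes included Igfbp7 (−0.88 ± 0.19), the laminin chain Lamc1 (−1.27 ± 0.14), Nid1 (−1.62 ± 0.14), and the integrins Itga1 (−0.78 ± 0.16) and Itgb1 (−1.39 ± 0.17).

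Further lists were smaller, and their counts stand beside 14.3% higher and 17% lower of all genes tested. In the list of vesicle genes, 3 of 6 were higher, led by the caveolar coat gene Cavin2 at 312 ± 70.9 against 17.5 ± 20.7 CPM, and 1 was lower, Ehd2 (−0.81 ± 0.25), whose call was lost without S02, S03 or S06 (−0.75 to −0.80). Nos3, the endothelial nitric oxide synthase, was 384 ± 110 against 18.8 ± 27.5 CPM (4.53 ± 0.62). Of 9 interferon and MHC class I genes 6 were higher, among them B2m (1.19 ± 0.27), H2-D1 (1.14 ± 0.29) and Ly6c1 (3.86 ± 0.60), and Irf1 was lower (−1.45 ± 0.50), a call that was lost without S01, S02, S03, S06, S08 or S09 (−1.17 to −1.45). Of 9 glucocorticoid-responsive genes 1 was higher, Tsc22d3 at 74.1 ± 41.9 against 30.3 ± 20.3 CPM, and 3 were lower, with Errfi1 at −3.30 ± 0.26 and Klf9 at −0.91 ± 0.17. Of 7 Müller glia genes 4 were also higher in the endothelial cells, with Glul at 771 ± 276 against 255 ± 236 CPM (1.79 ± 0.25). The Müller RNA was highest in the 73 cells with few endothelial genes, where Glul was at 2243 CPM against 583 CPM in the other 264 cells. Glul had a UMI in 57.5% of those 73 cells, 86.0% of the 264 and 59.4% of pericytes, without correction for depth. It was higher in endothelial cells in all 18 alternatives and called in 17. Glul lost its call when cells needed 4 of the 5 markers, a fit of 5 mice with a log2 fold change of 1.26. Whether its UMIs came from Müller glia was not tested.

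The genes with the largest fold changes, taken by a fixed rule, mixed known and less familiar names. Beside Mecom, Slco1a4 and Lef1 the 10 highest in endothelial cells held the recycling endosome gene Rab11fip1 (log2 fold change 5.30 ± 0.43), Pllp (4.95 ± 0.49) and Mal (4.88 ± 0.49), which code for related membrane proteolipids, Gvin-ps7 (4.81 ± 0.57), Lmo2, a partner of haematopoietic and endothelial transcription factors (4.77 ± 0.51), Megf6 (4.73 ± 0.42) and Tnfsf10, the ligand TRAIL (4.62 ± 0.46). Mal was at 137, 201 and 231 CPM in endothelial cells and 0, 1.04 and 32.5 CPM in pericytes. Gvin-ps7 is annotated as a pseudogene of a family of large interferon-inducible GTPases with near-identical copies, so its reads may be split with them.

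On the pericyte side the 10 genes were Thbs1 (−6.20 ± 0.49), Igfbp5 (−6.07 ± 0.70), Crispld2 (−6.01 ± 0.57), Myh11 (−5.01 ± 0.66), Acta2 (−4.91 ± 0.60), Tgfb3 (−4.89 ± 0.36), Jph2 (−4.86 ± 0.34), Tagln (−4.82 ± 0.41), Serpine2 (−4.79 ± 0.31) and Slit3 (−4.68 ± 0.41). Myh11, Acta2 and Tagln are contractile genes of smooth muscle. Each of the 20 genes moved the same way in all 8 mice, as the rule required.

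UMIs of the host genes of the microRNAs were found in the endothelial sums, although the 2 microRNAs themselves were not measured. The paper reports Trpm1 mainly in RPE and bipolar cells and Trpm3 in RPE and Müller glia. Whether RNA of such cells supplied these UMIs was not tested. Trpm3, whose intron holds miR-204, was at 662, 2628, 692 and 100 CPM in control mice and 43.5, 896, 244, 1018 and 178 CPM in dKO mice. S02, the highest of them, also had the highest sum of the 8 Müller glia genes, at 2599 CPM. Trpm3 was above the pericyte level (0.97 ± 0.27, adjusted p = 0.0165), and so was Trpm1, which holds miR-211 (1.23 ± 0.37, adjusted p = 0.0232), though the call for Trpm1 was lost without S01 or S08 (1.09 and 1.14). Among the 264 cells with strong endothelial identity the sign turned for both genes, to −0.04 for Trpm3 and −0.16 for Trpm1.

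Among the selected endothelial cells, few at most represented the vessels of the choroid. Plvap had a UMI in 19 of the 337 endothelial cells (5.64%, exact binomial 95% interval 3.43% to 8.66%, which covers counting error only), against 0.864% of rods at a median of 4745 UMIs and 0.394% of pericytes. After thinning the shares were 4.35%, 0.45% and 0%. Over the whole series 213 cells had at least 2 Plvap UMIs, 13 of them rods and 0 pericytes. Plvap was thus not confined to the endothelial cells, and the remaining cells with it were not examined. Among the endothelial cells at least 2 Plvap UMIs were found in 13, from S01 (2 cells), S03 (1), S06 (1), S08 (3) and S09 (6). These 13 endothelial cells held 201 of the 207 endothelial Plvap UMIs, and all 13 had 4 or more of the 10 endothelial check genes. Of the other fenestrated vessel genes, Gpihbp1 had no UMI in any endothelial cell and Aplnr 1.

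These 13 cells, set apart after their values were seen and not tested, differed from the 318 cells without Plvap across many genes at a similar depth (median 12311 and 11882 UMIs). The barrier carrier Slco1c1 had 0 UMIs in them, which allows up to 11.1 CPM, against 971 CPM and 253 of 318 cells without Plvap. Mfsd2a, a lipid carrier that keeps transcytosis low, and the arterial kinase Bmx had 0 as well. Slc2a1 was at 443 against 1957 CPM, Slco1a4 at 410 against 2157 CPM and Slc7a5 at 7.38 against 483 CPM, and all 3 were lower in each of the 5 mice that held such cells. Lef1 was at 613 against 1313 CPM. The carriers were not all absent. Abcb1a, a further carrier gene, had a UMI in all 13 cells, at 738 against 1297 CPM. Slc2a1 had a UMI in 10 of the 13 cells and Slco1a4 in 7.

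Other genes, also picked after their values were seen, were higher in the same cells. Selp (P-selectin, which catches leukocytes) was at 2518 against 3.23 CPM and Sele (E-selectin) at 875 against 0.293 CPM, so that these 13 cells held 95.4% and 96.3% of the endothelial UMIs of both genes. Selp was seen in 7 of the 13 cells and Sele in 6, and both were higher in 3 and 2 of the 5 mice. The 6 cells of S09 supplied 146617 of the 270830 UMIs of the 13 cells. Icam1 (716 against 44.3 CPM), Emcn (1558 against 227 CPM), Nrp2 (1034 against 135 CPM) and Igfbp3 (473 against 46.3 CPM) were higher in each of the 5 mice, and Vwf (1510 against 534 CPM) in 3 of 5. Rgs5, a pericyte gene used in the selection, was at 7.38 against 1079 CPM, with a UMI in 2 of 13 and 137 of 318 cells. The other pericyte genes were not compared in these cells.

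**Figure D4:**
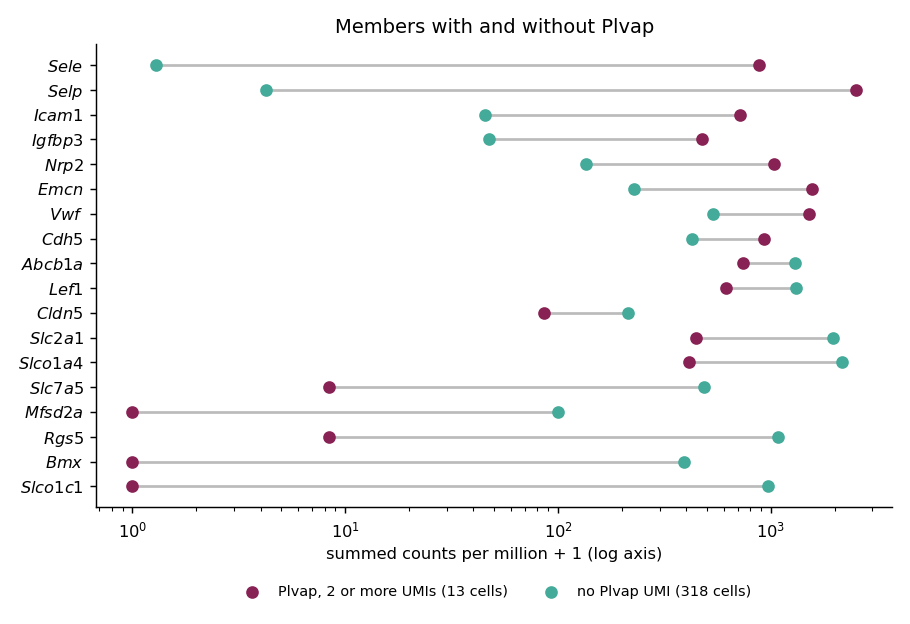
Levels of 18 genes (y axis) in the 13 endothelial cells with 2 or more Plvap UMIs and the 318 without any, as summed CPM plus 1 on a log axis (x axis). A gray line joins both values of a gene. Sele and Selp are far higher in the Plvap cells, and Slco1c1, Bmx and Mfsd2a sit at 0 in them.

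The share of endothelial cells with Plvap was 3 of 48, 1 of 36, 2 of 33 and 0 of 10 in control mice and 1 of 60, 2 of 57, 4 of 39 and 6 of 50 in S06 to S09. The means were 6.86% ± 5.04 (SD, n = 4) and 3.77% ± 2.98 (SD, n = 4) in dKO and control mice. The difference of 3.09 percentage points did not pass a two-sided exact permutation test (p = 0.343), and S06 and S07 lay within the control range.

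In the comparison of dKO with control mice, no single gene of the endothelial cells passed the test. Summed UMIs of the 8 mice with at least 10 endothelial cells (4 control and 4 dKO, S05 left out with 4 cells) gave 8675 genes to edgeR, of which 0 (0%) were called at an adjusted p under 0.05, and DESeq2 and limma-voom also called 0. At an unadjusted p under 0.05 there were 201 genes (2.32%), 103 higher (1.19%) and 98 lower (1.13%) in dKO. In 102 genes (1.18%) every dKO mouse lay above every control mouse, and in 61 (0.703%) below. Of the 8675 genes, 4316 had a log2 fold change above 0. The genes named in this comparison had an adjusted p of 1 in edgeR and are given by their values.

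Among genes with a mean of at least 50 CPM whose groups did not overlap, those with the lowest unadjusted p were taken by rule. On the higher side Cd93, a lectin-like receptor of endothelial cells, was at 175, 132, 194 and 183 CPM in control and 232, 211, 291 and 342 CPM in dKO mice (log2 fold change 0.66 ± 0.21 SE). Myo1e, a class I myosin, was at 465, 405, 453 and 402 CPM against 638, 613, 521 and 592 CPM (0.45 ± 0.15). Zbtb7c, a zinc finger gene, was at 48.3, 58.3, 17 and 0 CPM against 121, 124, 99.4 and 177 CPM (1.79 ± 0.47). The other 2 were Gvin-ps7 (0.80 ± 0.23) and Cnnm2, a gene of magnesium transport (0.59 ± 0.20). In S05, with 4 cells, each of these 5 genes lay within or below the control range.

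On the lower side Tenm3, a cell adhesion gene, was at 338, 243, 198 and 228 CPM in control and 141, 54.8, 142 and 38.8 CPM in dKO mice (−1.44 ± 0.40). Egln1, the oxygen-sensing prolyl hydroxylase PHD2 that marks HIF proteins for breakdown, was at 66.3, 61.8, 78.4 and 100 CPM against 28.5, 27.4, 52.1 and 56.3 CPM (−0.86 ± 0.30). Spsb1 (−1.12 ± 0.33), Katnbl1 (−0.45 ± 0.18) and the neuronal gene Lingo2 (−1.38 ± 0.55) made up the 5, and Lingo2 turned to 0.04 where cells needed 4 of the 5 markers. In S05, with 4 cells, Tenm3, Egln1, Spsb1, Katnbl1 and Lingo2 were at 15.8, 31.6, 47.4, 47.4 and 11.85 CPM, each below the control range.

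The antigen presentation genes lay on the higher side in dKO mice. H2-K1 was at 82.4, 56.0, 63.1 and 128 CPM in control and 131, 163, 143 and 121 CPM in dKO mice (0.87 ± 0.24, unadjusted p = 0.00476 in edgeR), H2-D1 at 120 ± 30.5 against 170 ± 43.3 CPM (0.55 ± 0.24), and B2m at 129 ± 18.1 against 176 ± 42.0 CPM (0.45 ± 0.21). The groups of H2-K1 overlapped through S04. Within the groups, H2-K1 and H2-D1 were highest in rod-rich libraries. They were at 128 and 155 CPM in control mouse S04 and at 163 and 224 CPM in S07, the highest dKO mouse of the fit. In S05, left out of the fit with 4 cells, they were at 300 and 494 CPM. The part of library type in these values was not tested. Of the 11 interferon and MHC class I genes tested, 10 had a log2 fold change above 0, beside 4316 of 8675 for all genes. Their median was 0.45 beside 0.00 for all genes, and 2 (H2-K1 and H2-D1) had an unadjusted p under 0.05. The median was 0.13 above that of all genes when the deepest 5% of cells were left out.

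Adhesion genes varied strongly between dKO mice. Vcam1 was at 119, 21.0, 30.7 and 0 CPM in the controls and 21.0, 652, 384 and 260 CPM in S06 to S09, so that S06 fell among the controls (2.68 ± 0.94, unadjusted p = 0.0171 in edgeR). Icam2 was at 30.3, 16.3, 20.5 and 18.3 CPM against 29.3, 50.3, 36.4 and 54.9 CPM (0.93 ± 0.31). Of 6 leukocyte adhesion genes tested 5 were above 0, beside 4316 of 8675 for all genes. Of 21 endothelial transcription factors only Sox7 had an unadjusted p under 0.05, at 55.9, 22.2, 51.1 and 45.6 CPM against 67.5, 63.7, 73.9 and 88.4 CPM (0.75 ± 0.29), with all 4 dKO mice above all controls.

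The barrier transporters and capillary genes had medians below 0 without a called gene, and S03 carried much of this. Of 15 transporter genes 2 were above 0, with a median log2 fold change of −0.26, and of 8 capillary genes 0 were above 0, with a median of −0.42; 4 genes (Mfsd2a, Slc16a1, Slc7a5 and Tfrc) stand on both lists. Relative to all genes these medians were −0.26 and −0.41, and −0.00 and −0.17 without S03. Slc2a1 was at 1879, 2403, 2794 and 1178 CPM in control and 1967, 1292, 1122 and 1856 CPM in dKO mice (−0.41 ± 0.30), which overlapped widely. Slc7a5 was at 564, 517, 997 and 539 CPM against 500, 139, 454 and 540 CPM (−0.69 ± 0.39), and Spock2 at 2092 ± 407 against 1564 ± 324 CPM (−0.42 ± 0.21). Of 13 junction genes 6 were above 0 (median −0.03), and Tjp1 was at 2009 ± 371 against 1582 ± 103 CPM (−0.34 ± 0.17). Of 16 norrin and Wnt genes 6 were above 0, with a median of −0.06. Beside these, 1 of 12 rod genes (median −0.38) and 1 of 8 Müller glia genes (median −0.32) were above 0. For all genes tested it was 4316 of 8675.

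**Figure D5:**
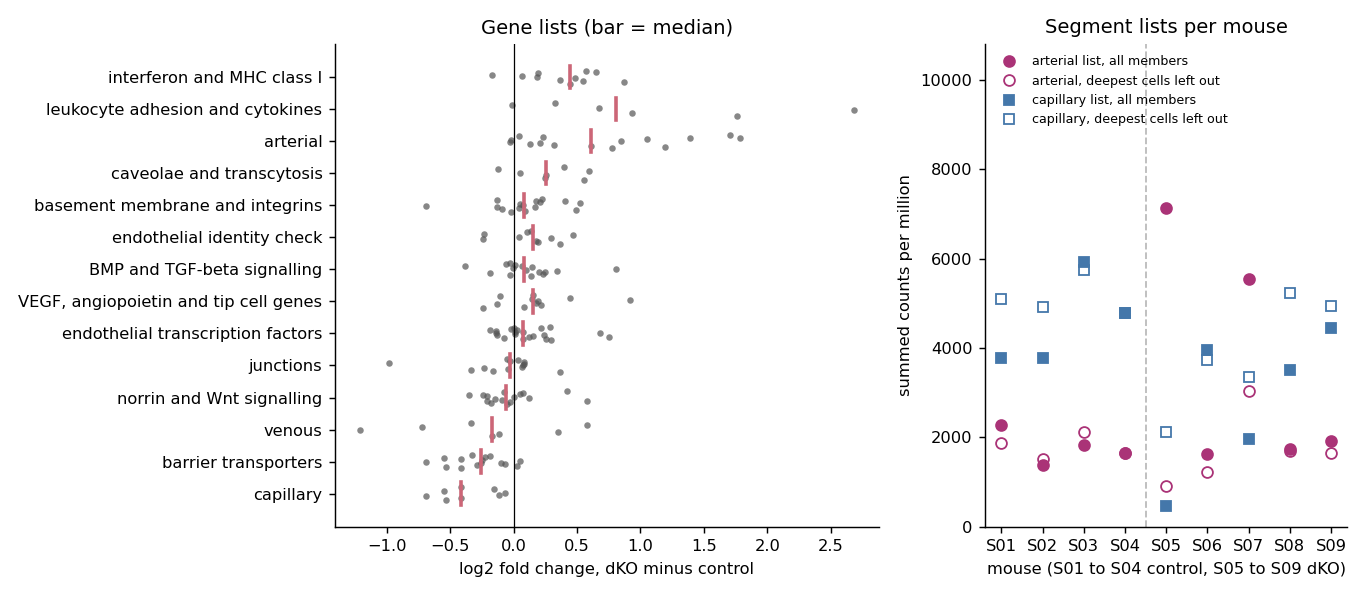
Left, log2 fold change (x axis, dKO minus control) of each tested gene (gray points) of 14 lists (y axis), with the median as a bar. Right, summed CPM of the arterial and capillary lists (y axis) in the endothelial cells of each mouse (x axis), over all cells (filled) and with the deepest 5% of cells of the series left out (open). Over all cells the arterial list is highest and the capillary list lowest in S05 and S07.

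The arterial genes rested on 1 mouse. Of 15 tested, 13 were above 0, beside 4316 of 8675 for all genes, with a median log2 fold change of 0.61. Bmx was at 265, 112, 140 and 82.2 CPM in control and 164, 928, 139 and 185 CPM in S06 to S09, and Mgp, a matrix protein of arteries, at 113, 36.2, 42.6 and 63.9 CPM against 45.0, 438, 116 and 237 CPM (1.70 ± 0.65). The arterial list summed to 5532 CPM in S07 and to 1637 to 1914 CPM in the other 3 dKO mice, against 1380 to 2283 CPM in control mice. Without S07 the median of the arterial genes relative to all genes was −0.19. In S05, which the fit leaves out, the list stood at 7134 CPM from 4 cells.

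Within S07 a few deep cells held much of the arterial RNA, which was not particular to this mouse. Its 4 cells with most arterial UMIs had 132341 to 203643 UMIs each and held 59.3% of the 8685 arterial UMIs of that mouse. The top 4 cells held 35.7% to 82.3% in the 7 other mice with at least 10 endothelial cells. Arterial genes differed in how many of its cells held them. Gja5, the arterial connexin 40, was found in 17.5% of the S07 cells against 0% to 8.33% in the 7 other mice with at least 10 endothelial cells, and Gkn3 in 21.1% against 0% to 11.1%, while Bmx was found in 47.4% against 30% to 48.5%. In S05, 2 of the 4 cells held each of these 3 genes. With the deepest 5% of cells left out, the arterial list was at 3029 CPM in S07 and at 907 to 2126 CPM in the other 8 mice. The capillary list was at 1970 CPM in S07 over all cells and 3500 to 5919 CPM in the 7 other mice with at least 10 endothelial cells, and with the deepest cells left out at 3349 CPM in S07 and 3736 to 5734 CPM in those mice. Among the 264 cells with strong endothelial identity, all 20 cells with Gja5 also had Bmx, 14 had Gkn3 and 0 had the amino acid carrier Slc38a5, which was itself found in 20 cells. The venous genes were not absent from them: 17 of the 20 had Ephb4, 14 had Il1r1 and 4 had Ackr1. Such joint detection depends on depth, which was not corrected here.

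Fn1 followed the same mouse, at 2524 CPM in S07 and 1397 to 1591 CPM in the other 3 dKO mice, against 1212 to 1575 CPM in control mice (0.40 ± 0.22). Of 6 tested genes that the study names, 1 was above 0, the small nuclear RNA gene Rn7sk (1.48 ± 0.90). It was at 470 CPM in S07 and 19.4 to 64.2 CPM in the other 7 mice of the fit, and without S07 the log2 fold change was −0.54. Mlec, which codes for an endoplasmic reticulum lectin, was at 33.1, 54.8, 35.8 and 73.0 CPM in control and 37.5, 20.4, 29.1 and 32.1 CPM in dKO mice (−0.62 ± 0.30). Trpm3 had a log2 fold change of −0.86 ± 0.81, with S02 far above the other mice.

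RNA of other cells in the endothelial sums overlapped between the groups. The 12 rod genes summed to 735 to 8918 CPM in control mice, the highest in S04, and to 889 to 2548 CPM in dKO mice. The 8 Müller glia genes summed to 438 to 2599 against 690 to 2124 CPM, the 9 pericyte genes to 210 to 2648 against 1578 to 2292 CPM, the 5 RPE genes to 18.3 to 31.2 against 11.5 to 149 CPM, the 8 microglia and leukocyte genes to 15.3 to 79.5 against 8.48 to 73.3 CPM, and the 3 smooth muscle genes to 0 to 84.3 against 17.4 to 482 CPM, the highest in S07. A fit that carried each mouse's rod RNA share as a term, one without cells holding 3 or more pericyte genes and one on the 264 cells also called 0 genes each. Their part in the values above was not tested further.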

How the data were processed

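Retinas of 9 mice were dissociated with papain and their cells fixed and barcoded in 8 sublibraries with a split-pool kit (Parse Evercode). Per the study's methods and the labels, the authors ran split-pipe on GRCm39 with its defaults, filtered cells with under 200 genes and genes in under 3 cells, and used Seurat 4.3.0 in R 4.2.2. The deposited matrix holds raw UMI counts per gene and cell. The deposited cell totals equalled the sums of these counts in 31089 of 31089 cells.

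Endothelial cells and pericytes were taken by the rules in the text. Counts were summed per mouse and tested with edgeR 4.0.16 (quasi-likelihood, TMM, filterByExpr, Benjamini-Hochberg over all genes tested) in R 4.3.3, with mice of at least 10 cells of the kind. The mouse was the block where endothelial cells and pericytes of the same mice were compared, a pairing that comes from the mice themselves. Levels are CPM of the summed UMIs, without TMM. They cannot be ranked between genes, as gene length was not taken into account, and the kit's strand handling is not given in the sources used here, so antisense partners cannot be separated. Cell shares were compared by exact permutation tests (scipy 1.17.1) over mice. Between 4 and 5 mice the smallest p possible is 0.0159. DESeq2 1.42.0 and limma 3.58.1 served as alternatives. No doublet caller was run, so the deepest 5% of cells were left out as an alternative. The fits were tested on simulated data with 200 changed genes.

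The cells, gene lists and tests were chosen with earlier results of these data known. Genes named for dKO against control were the 5 of lowest p in each direction among genes of at least 50 CPM whose groups did not overlap, list members with an unadjusted p under 0.05, the 3 list members of highest level and the genes the study names. Against pericytes they were the 10 called genes of largest fold change in each direction, with at least 50 CPM in the higher kind and the same direction in every mouse, and the 3 list members of highest endothelial level. Of these the text prints those that describe a result, and other list members were chosen after their values were seen. Gene positions come from GENCODE vM39 by symbol. RNA of the 2 deleted microRNAs and the authors' cell type names were not analysed here.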

Additional observations from a re-analysis of the deposited data

Results flagged for a closer look

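Dixon's ratio was taken for 84 groups of 4 or 5 mice, and 9 exceeded its 95% critical value. Chance alone gives about 1 in 20 groups.

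In dKO mice the share of endothelial cells was 0.247% in S05 and 1.21% to 1.45% in the other 4. In control mice S04 stood apart in 2 values: 60% of its endothelial cells had 4 or more of the 10 check genes, against 83.3% to 86.1%, and its rod genes summed to 8918 CPM, against 735 to 1029 CPM. Both S04 and S05 are rod-rich libraries with 10 and 4 endothelial cells.

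In dKO mouse S07 the arterial list summed to 5532 CPM, against 1637 to 1914 CPM in the other 3 dKO mice, and Bmx alone stood at 928 CPM, against 139 to 185 CPM. The small nuclear RNA gene Rn7sk was at 470 CPM in S07, against 19.4 to 47.3 CPM. In dKO mouse S08 the 5 RPE genes summed to 149 CPM, against 11.5 to 24.8 CPM.

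In control mouse S03 the barrier transporter list summed to 16813 CPM, against 11369 to 12204 CPM, and Slc7a5 was at 997 CPM, against 517 to 564 CPM. The median log2 fold change of the transporter list, relative to all genes, was −0.26 with all mice and −0.00 without S03.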

How the results depend on the processing

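No paired analysis was possible because control and dKO mice carry different replicate numbers and are not matched by any label. In the comparison with pericytes, leaving out the mouse block gave 2146 called genes against 2141 with it, 1989 of them shared. The share of endothelial cells kept its direction in every alternative run and passed the test only without S05 (0.458 percentage points). Leaving out 1 mouse at a time gave 0.0743 to 0.458 percentage points for this share, −0.22 to 0.53 for the log2 ratio to pericytes and 1.37 to 4.82 percentage points for the Plvap share. The ratio also turned with S06 and S07 summed (−0.11) and with the deepest 5% of cells left out (−0.10). Its values without S03, S04, S06 and S07 were −0.21, −0.22, −0.01 and −0.19. The cause was not tested. The Plvap share passed no test in any alternative.

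Genes called between dKO and control mice numbered 14 without a filter on low counts (4 higher) and 0 in the other alternatives, including each mouse left out in turn. The other 10 were lower and had most of their UMIs in S02, 9 of them over 90%. The 6 fibroblast genes summed to 209 CPM in S02 and to 0 to 9.47 CPM in the other controls. Zbtb7c was among the higher (1.82, adjusted p = 0.0492 in edgeR). Against pericytes 1409 genes also had a log2 fold change over 1 in size. The alternatives gave 1559 to 3203 called genes, and leaving out 1 mouse 1837 to 2173. Higher genes made up 45.7% of calls, against 54.9% with library size alone and 56.7% with every mouse of at least 1 cell of both kinds.

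Named genes that changed sign were, for dKO against control, Lingo2 with 4 of 5 markers (0.043) and Trpm3 with 4 of 5 markers (0.60), without the deepest cells (0.16) and without S02 (0.18). Rn7sk turned without S07 (−0.54). Leaving out 1 mouse gave −1.26 to 0.18 for Trpm3 and −0.54 to 1.84 for Rn7sk. Against pericytes they were Magi1 (0.83) and Trpm1 (−0.37) with 4 of 5 markers, and Trpm1 (−0.16) and Trpm3 (−0.040) among the 264 cells, an alternative chosen after seeing the data. Foxc1, Igfbp7, Klf9, Glul, Irf1, Ehd2 and Trpm3 lost their call with 4 of 5 markers, and Slc3a2 and Cgnl1 gained one in 8 and 4 alternatives. Depth limits what can be said of genes under about 50 CPM in S04 and S05.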
